A study of Mus musculus with 2 samples.

Results

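The genes described here are the mouse zinc finger genes whose symbols are Zfp, Zscan or Zkscan followed by a number. Of 47719 genes in the deposited table, 437 carry such a symbol, 416 of them protein-coding, and 237 are described: those protein-coding genes with at least 100 deposited counts in both libraries, leaving out Zfp750 and the Zfp36 genes, which belong to other families. They comprise 223 Zfp, 7 Zscan and 7 Zkscan genes. The level in both libraries chose them, so their levels are a description and no finding.

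RNA was sequenced from keratinocytes, the main cells of the epidermis, obtained from the tail skin of 8-week-old C57BL/6J mice and kept for 3 days in Medium 154CF. There was 1 library of the genotype K5.Pp6fl/fl, titled as the conditional knockout (cKO), and 1 library of the genotype Pp6fl/fl. Pp6fl/fl denotes a floxed allele of Pp6, which encodes the catalytic subunit of the serine/threonine phosphatase PP6, so both libraries carry the floxed allele. K5 is the name of keratin 5, whose promoter is active in basal keratinocytes, and the labels do not spell out the driver. The number of mice behind each culture is not given. With 1 library per genotype no difference has a replicate check and no p-value was computed.

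C2H2 zinc fingers are short modules folded around a zinc ion, and arrays of them read DNA sequence, or bind RNA or protein. In many mammalian family members an amino-terminal KRAB domain recruits TRIM28 (KAP1), which brings the histone methyltransferase SETDB1 and heterochromatin protein HP1 to silence retroelements and some genes. A SCAN domain instead lets these proteins pair with each other. Genes of the KRAB class lie in runs of neighbouring copies that arose by duplication, and close copies share much of their sequence.

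Estimated reads in genes came to 17361256 for K5.Pp6fl/fl and 19374771 for Pp6fl/fl. Ppp6c, the gene of the floxed allele, had 707 reads in K5.Pp6fl/fl and 1074 in Pp6fl/fl, or 40.7 and 55.5 CPM (counts scaled to the size of the library). The fold was 0.733, with a 95% counting interval of 0.665 to 0.806. In the deposited FPKM values, which are scaled for transcript length and depth, Ppp6c had 16.8 in K5.Pp6fl/fl and 30.6 in Pp6fl/fl, a ratio of 0.548. Which exons the deletion removes is not given, and reads outside the deleted part would still be counted. The labelled cell type was clear in both libraries: 8 keratinocyte markers summed to 85142 CPM in K5.Pp6fl/fl and 88858 CPM in Pp6fl/fl. The 5 leukocyte markers were at 0 in both. Fibroblast markers summed to 0.920 and 0.775 CPM, endothelial markers to 1.32 and 0.620 CPM, and 5 melanocyte markers to 14.2 CPM in K5.Pp6fl/fl and 7.03 CPM in Pp6fl/fl. The part of the melanocyte RNA in the values below was not tested. In RNA pooled over cells, fewer cells of a type and less RNA per cell cannot be told apart.

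Promoter windows of 6 members are shown because these genes lie at the ends of the differences described below. Zfp984, Zfp942, Zfp995 and Zfp994 had the highest ratios among members with an entry in the promoter table, and Zfp503 and Zfp319 the lowest. Each runs from 250 bases before to 50 after the annotated gene start, is written 5′ to 3′ in the direction of transcription, and comes from RefSeq on GRCm38.p6, where all of these genes are on the minus strand. Positions are chr4:147809739-147810038 for Zfp984, chr17:21962415-21962714 for Zfp942, chr17:21909877-21910176 for Zfp995, chr17:22225565-22225864 for Zfp994, chr14:21989552-21989851 for Zfp503 and chr8:95331762-95332061 for Zfp319. Capitals mark matches, on either strand, to the CCAAT box (CCAAT), the GC box (GGGCGG), the ETS-type motif CCGGAAG and the TATA box (TATAAA), a set of motifs chosen after their shares were seen.
Zfp984: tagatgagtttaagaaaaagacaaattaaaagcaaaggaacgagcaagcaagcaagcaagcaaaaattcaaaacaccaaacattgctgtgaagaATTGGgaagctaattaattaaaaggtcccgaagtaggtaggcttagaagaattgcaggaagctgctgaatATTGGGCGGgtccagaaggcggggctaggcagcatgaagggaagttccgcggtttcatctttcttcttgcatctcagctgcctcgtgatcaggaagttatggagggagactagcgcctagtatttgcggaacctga
Zfp942: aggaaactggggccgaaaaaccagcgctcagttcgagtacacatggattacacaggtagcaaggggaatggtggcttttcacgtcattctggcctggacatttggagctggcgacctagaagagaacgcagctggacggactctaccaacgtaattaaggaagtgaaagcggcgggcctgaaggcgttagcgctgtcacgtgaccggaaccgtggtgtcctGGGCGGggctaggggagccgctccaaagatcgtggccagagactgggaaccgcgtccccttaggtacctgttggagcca
Zfp995: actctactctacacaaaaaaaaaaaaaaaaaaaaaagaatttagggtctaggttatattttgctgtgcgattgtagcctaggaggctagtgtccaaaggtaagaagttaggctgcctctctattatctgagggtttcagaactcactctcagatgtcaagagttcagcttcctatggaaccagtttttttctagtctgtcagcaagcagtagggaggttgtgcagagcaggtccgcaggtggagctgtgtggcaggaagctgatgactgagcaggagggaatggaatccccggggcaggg
Zfp994: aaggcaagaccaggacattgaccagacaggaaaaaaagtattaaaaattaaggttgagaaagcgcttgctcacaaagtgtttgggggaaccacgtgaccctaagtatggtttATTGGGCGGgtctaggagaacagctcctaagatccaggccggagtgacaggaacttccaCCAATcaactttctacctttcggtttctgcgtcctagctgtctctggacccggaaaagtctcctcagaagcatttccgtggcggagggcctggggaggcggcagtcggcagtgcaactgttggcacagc
Zfp503: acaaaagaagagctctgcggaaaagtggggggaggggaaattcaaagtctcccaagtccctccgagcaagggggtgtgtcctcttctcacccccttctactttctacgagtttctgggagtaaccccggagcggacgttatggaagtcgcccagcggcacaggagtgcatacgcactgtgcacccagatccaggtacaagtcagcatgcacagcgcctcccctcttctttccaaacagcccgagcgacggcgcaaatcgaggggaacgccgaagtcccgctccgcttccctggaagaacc
Zfp319: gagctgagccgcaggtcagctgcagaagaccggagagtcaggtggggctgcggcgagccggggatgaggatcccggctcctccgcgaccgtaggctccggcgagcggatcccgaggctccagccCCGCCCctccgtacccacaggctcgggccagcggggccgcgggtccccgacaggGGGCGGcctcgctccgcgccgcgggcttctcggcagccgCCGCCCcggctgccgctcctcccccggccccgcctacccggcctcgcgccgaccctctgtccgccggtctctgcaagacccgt

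The Zfp984 and Zfp994 windows, from genes on different chromosomes, both held a reversed CCAAT box that overlaps a GC box (ATTGGGCGG), and a further CCAAT box. Zfp942 held 1 GC box, Zfp319 held 3 GC boxes, and Zfp995 and Zfp503 held no match. Such a match is a description of letters and not a binding site. The overlapping pair stood in 1.69% of 236 member windows, in 0.428% of windows of coding genes with 100 counts or more in both libraries and in 0.256% of all windows of that table. Its letters were chosen after the windows were seen.

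Across the 193 members with an entry, a CCAAT box stood in 52.2% of KRAB windows and 35.8% of the other members' windows, against 37.9% for protein-coding genes at 100 counts or more in both libraries. A GC box stood in 35.4% of KRAB windows, 61.0% of the other members' windows and 65.9% of those coding genes' windows. The ETS-type motif stood in 20.4%, 22% and 19.9% of them, in the same order of sets. TATAAA stood in 5.51% of member windows and 6.56% of the coding genes' windows. Zfp991, Zfp992 and Zfp623 have no entry in the table.

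Levels of the family differed little between the genotypes. A fold is the CPM in K5.Pp6fl/fl divided by that in Pp6fl/fl, and a log2 ratio is taken after adding 0.5 CPM to both values. The median log2 ratio over the 237 members was -0.09, with quartiles of -0.19 and 0.01, a lowest value of -0.52 and a highest of 0.79. Over all 9870 genes at the same count level the median was -0.02, with quartiles of -0.11 and 0.09. Among the members 67 had a log2 ratio above 0 and 170 had one below 0, so 28.3% were above 0, against 45.0% of all genes at that level. The reads of all members together gave 6890 CPM in K5.Pp6fl/fl and 7314 CPM in Pp6fl/fl, a fold of 0.942 with a counting interval of 0.935 to 0.949. How far 2 cultures of 1 genotype differ in these values is not known from 1 library of each.

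No member reached a 2-fold difference in either direction, where the background over all genes at the count level was 0.172% for 2-fold higher and 0.0101% for 2-fold lower. Only Zfp984 and Zfp991 were at least 1.5-fold higher, against a background of 1.62% of genes, and no member was at least 1.5-fold lower, against 0.304%. The counting interval lay wholly above a fold of 1 for 18 members, or 7.59%, where the background was 17.2%. It lay wholly below 1 for 60 members, or 25.3%, where the background was 19.9%. The members had fewer reads than this background, and such calls are rarer at low levels. Among other coding genes of at most 12.7 CPM, 12.9% of intervals lay above 1 and 9.01% below. An interval off 1 marks a difference larger than counting error between these libraries and says nothing of the spread between cultures. In the authors' deposited table, 10 members had an FDR under 0.05 and were higher, against 9.24% of all genes, and 22 were lower, against 6.17%.

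**Figure D1:**
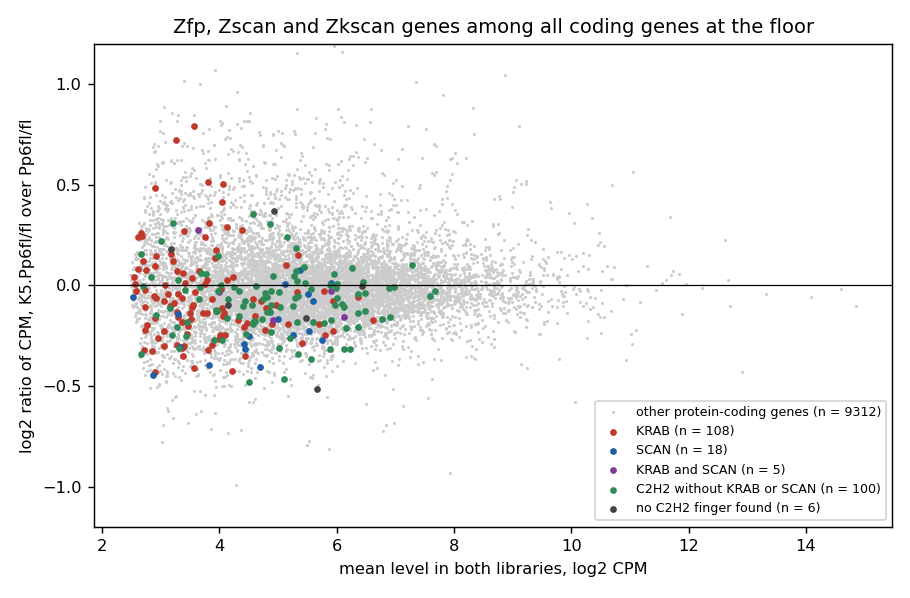
Log2 of the K5.Pp6fl/fl level over the Pp6fl/fl level (CPM, 0.5 added to both) against mean CPM on a log2 axis, for the 237 members (coloured by domain class) and the 9312 other protein-coding genes with 100 deposited counts or more in both libraries (grey). Most members lie a little below 0, with a median of -0.09; 9 grey genes fall outside the plotted range.

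The members are mostly low genes. Their mean over the libraries ran from 5.76 to 204 CPM with a median of 18.5, where protein-coding genes at the same count level had a median of 43.4. Per transcript length, the median mean level was 7.44 FPKM (fragments scaled for transcript length and depth) for members and 20.0005 FPKM for those coding genes. The downward lean stood at each level. Members with the lowest mean CPM, up to 12.7, had a median log2 ratio of -0.06, and 29 of 79 were above 0. Other coding genes in that range of CPM had a median of 0.01, with 51.4% above 0. Between 12.7 and 29.7 CPM the median was -0.11 for members, with 18 of 79 above 0, against -0.02 for other coding genes, with 45.0% above 0. Above 29.7 CPM it was -0.08 for members, with 20 of 79 above 0, against -0.02 for other coding genes, with 44.5% above 0.

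The lean varied with base composition. Exonic GC content had a median of 46.1% over members and 50.4% over coding genes at the count level. Across the 237 members the log2 ratio and GC content had a Pearson r of -0.39 and a Spearman rho of -0.41. Across the 9549 coding genes r was -0.19 and rho was -0.22. All points come from the same pair of libraries, and genes are not independent replicates. After a correction of the ratios for GC content and transcript length the members' median was -0.11, with 23.6% above 0. The 119 members at or under 46.1% GC had a median log2 ratio of -0.03, with 50 above 0, whereas 2498 other coding genes at such GC had a median of 0.03, with 59.8% above 0. The 118 members above 46.1% GC had a median of -0.15, with 17 above 0, against -0.04 for 6814 other coding genes, with 40.2% above 0. The number of fingers showed no such relation with the log2 ratio (r = -0.00078 over 237 members).

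Members were classed by patterns searched in the translated coding sequence. The KRAB A box pattern alone was met in 108 members, the SCAN pattern alone in 18 and both in 5. C2H2 fingers with neither pattern were found in 100, and in 6 no C2H2 finger was found. A class without KRAB or SCAN means that the pattern was not met, and the domain may still be present. KRAB genes carried a median of 12 fingers and the other finger genes 7, and the longest array, in Zfp142, had 36. The median log2 ratio was -0.08 for KRAB genes, with 37 of 108 above 0, and -0.07 for genes with fingers alone, with 24 of 100 above 0. For KRAB genes the counting interval lay above 1 for 10 (9.26%) and below 1 for 21 (19.4%), where 17.2% and 19.9% of all genes did so. For genes with fingers alone it lay above 1 for 6 of 100 and below 1 for 24 of 100. After the correction for GC content and length the KRAB median was -0.13 and that of genes with fingers alone -0.10.

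The 18 SCAN genes in which the KRAB pattern was not met had the lowest median of these classes, -0.24, and 3 of 18 were above 0. Zkscan1, Zkscan3, Zkscan5, Zkscan14 and Zkscan17 are among them, although Zkscan symbols stand for KRAB and SCAN together. The class is thus one of pattern matches and may hold genes with a KRAB domain. Intervals of the 18 genes lay below 1 for 11 and above 1 for 0, where 19.9% and 17.2% of all genes did so. Reads of the 18 genes summed to 510 CPM in K5.Pp6fl/fl and 569 CPM in Pp6fl/fl, a fold of 0.896 (interval 0.871 to 0.921). Among all 23 members with a SCAN domain, 1 interval lay above 1 and 13 below. The 1 above belongs to Zfp369, which carries SCAN and KRAB and had 237 reads in K5.Pp6fl/fl against 216 in Pp6fl/fl, a fold of 1.22 (1.01 to 1.48).

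The Zscan and Zkscan symbols give the same picture from the names alone, though they share most of these genes. All 7 Zscan genes had a log2 ratio under 0, with a median of -0.25, and for 5 the interval lay below 1. Of the 7 Zkscan genes 2 were above 0 and 4 had an interval below 1. Over all genes at the count level 45.0% were above 0 and 19.9% had an interval below 1. Zscan22 had 212 reads in K5.Pp6fl/fl and 313 in Pp6fl/fl, a fold of 0.754 (0.630 to 0.900). Zkscan5 had 384 and 569 reads in these libraries, a fold of 0.751 (0.658 to 0.856). Zkscan17 had 849 and 1142 reads, a fold of 0.827 (0.756 to 0.905), and Zkscan1 had 740 and 965 reads, a fold of 0.854 (0.775 to 0.940). Zkscan3, whose human counterpart represses autophagy genes, had 60.4 CPM in K5.Pp6fl/fl and 59.9 CPM in Pp6fl/fl, and Zscan26 had 44.8 and 46.1 CPM. Their intervals both held 1.

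**Figure D2:**
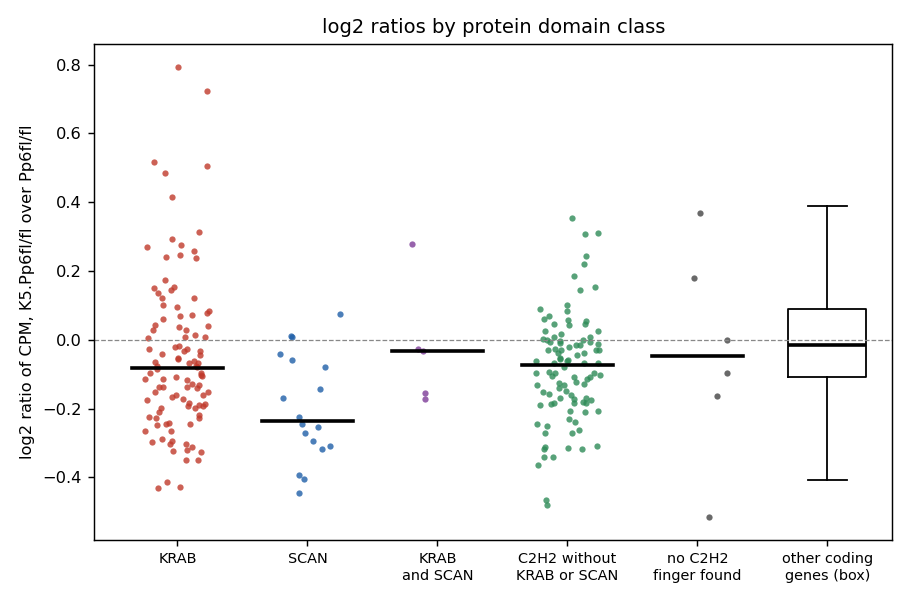
Log2 of the K5.Pp6fl/fl level over the Pp6fl/fl level (CPM, 0.5 added to both) of each member, split by domain class, beside a box (median and quartiles) for the other protein-coding genes at the same count level. Each point is 1 gene and each thick line a class median: -0.08 for KRAB, -0.24 for SCAN and -0.07 for fingers with neither pattern met.

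Zinc finger genes outside these symbols did not all share the lean. The 19 coding KRAB finger genes with other symbols had a median log2 ratio of 0.08, with 14 above 0, and the 184 finger genes without KRAB had a median of -0.03. The 35 Zbtb genes, which join fingers to a BTB domain, had a median of -0.08, with 9 above 0. The 13 Klf and Sp genes, regulators that bind GC-rich promoter boxes, had a median of -0.01. The 17 Zc3h genes, of the CCCH finger type, had -0.04, the 59 Rnf genes of the RING type -0.05 and the 26 Trim genes -0.09.

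The highest ratios belong to KRAB genes on chromosome 4. Zfp984 had 265 reads in K5.Pp6fl/fl and 166 in Pp6fl/fl, which is 15.2 and 8.58 CPM, and its fold was 1.78 (1.46 to 2.17). Zfp991 had 209 reads in K5.Pp6fl/fl and 137 in Pp6fl/fl, a fold of 1.70 (1.36 to 2.12). Zfp992 had 343 and 266 reads in these libraries, a fold of 1.44 (1.22 to 1.69). These genes have close copies, and the estimated counts split reads between copies: 54.5% of the 50-base words in Zfp984 transcripts occur in another gene, 82.2% of those in Zfp991 and 43.0% of those in Zfp992.

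Sums over the copies depend less on that split. Zfp984 with Gm13147 and Gm13212 had 329 reads in K5.Pp6fl/fl and 204 in Pp6fl/fl, a fold of 1.80 (1.503 to 2.15). Zfp991, Zfp992, Zfp993 and Znf41-ps together had 956 reads in K5.Pp6fl/fl and 644 in Pp6fl/fl, a fold of 1.65 (1.49 to 1.83). For Zfp991 the deposited FPKM was 13.3 in K5.Pp6fl/fl and 2.82 in Pp6fl/fl, a ratio of 4.73, far from its count fold of 1.70. Of the coding finger genes in the same stretch of chromosome 4, Gm13212 had 63 and 36 reads, a fold of 1.95 (1.27 to 3.02). Gm13212 is already part of the Zfp984 sum and holds 46.9% of the words of Zfp984, so its count is not independent. Zfp933, with few shared words, had 168 and 171 reads, a fold of 1.09 (0.879 to 1.36). The 4 members there, which lie in stretches of fewer than 4 members each, together had a fold of 1.48 (1.35 to 1.63). These stretches were picked because they hold Zfp984, Zfp991 and Zfp992, after the values were seen. Their summed fold is thus a description and no separate finding. The 616 other coding genes of chromosome 4 at the count level had a median log2 ratio of -0.03.

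The other stretch with high ratios is on chromosome 17. Runs were taken as coding finger genes with at most 1 other coding gene between neighbours and at least 4 members, a definition set after the values were seen. Of 10 runs, that of 14 KRAB genes between Zfp677 and Zfp946 on chromosome 17 had the highest median log2 ratio, 0.20, with 11 of 14 above 0. Its reads together gave a fold of 1.12 (1.07 to 1.17). Intervals lay above 1 for 6 genes (42.9%) and below 1 for 1 (7.14%), where 17.2% and 19.9% of all genes did so. Zfp942 had 289 reads in K5.Pp6fl/fl and 222 in Pp6fl/fl, a fold of 1.45 (1.21 to 1.73). Zfp995 had 153 and 119 reads, a fold of 1.43 (1.12 to 1.83), and Zfp994 had 330 and 273 reads, a fold of 1.35 (1.14 to 1.59). Zfp946 had a fold of 1.251 (1.05 to 1.49), and Zfp51 one of 1.22 (1.05 to 1.41). Zfp52 had 743 reads in K5.Pp6fl/fl and 744 in the deeper Pp6fl/fl library, a fold of 1.11 (1.003 to 1.23). For Zfp677, Zfp760, Zfp229, Zfp943 and Zfp944 the folds ran from 1.07 to 1.22, with intervals that held 1.

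Genes inside the run did not all move together. Zfp54 had 159 reads in K5.Pp6fl/fl and 222 in Pp6fl/fl, a fold of 0.797 (0.646 to 0.982), and its neighbour Zfp53 had 110 and 156 reads, a fold of 0.785 (0.609 to 1.01). Zfp948, with the most reads of the run, had 54.4 CPM in K5.Pp6fl/fl and 55.5 CPM in Pp6fl/fl. Fewer words are shared here than in Zfp984, Zfp991 and Zfp992: 18.2% for Zfp994, 13.4% for Zfp995, 10.4% for Zfp944 and 5.80% for Zfp942. No sum over copies is given for this run, so the part of read splitting in its ratios was not tested. The 445 other coding genes of chromosome 17 had a median log2 ratio of -0.02, and the 12 coding genes at the count level around and within the run had one of 0.03. Outside the run, the 99 remaining KRAB members had a median of -0.11, with 27 above 0. Transcripts of both high stretches are poor in GC, at 36.5% for Zfp984 and 37.4% for Zfp942, and their ratios were smaller after the correction for GC content and length. The log2 ratio of Zfp984 was then 0.62, where it was 0.79 without the correction, and that of Zfp991 was 0.53, where it was 0.72, so that Zfp991 no longer reached 1.5-fold. That of Zfp942 was 0.37, where it was 0.52, and that of Zfp946 was 0.15, where it was 0.31.

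**Figure D3:**
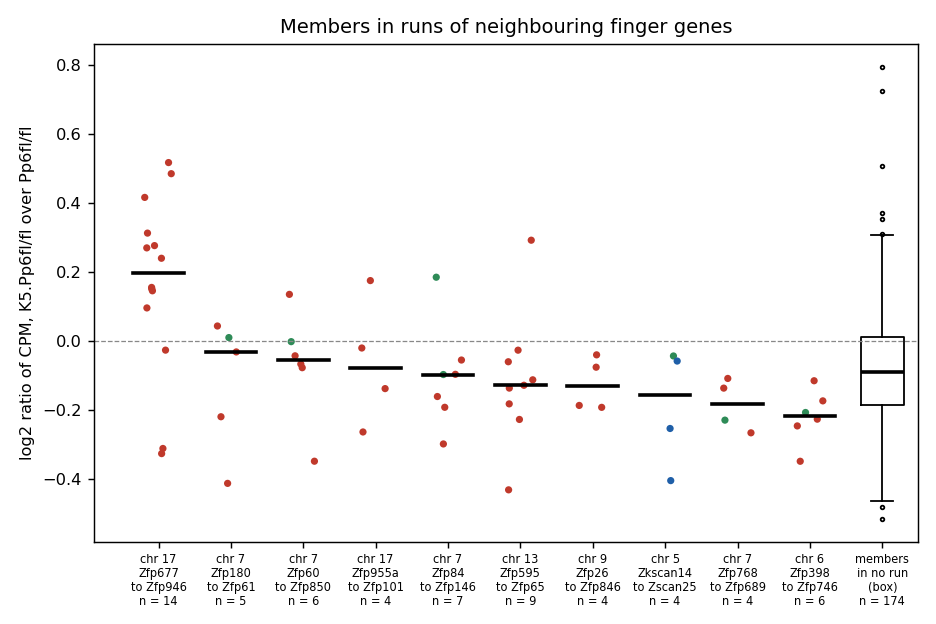
Log2 of the K5.Pp6fl/fl level over the Pp6fl/fl level (CPM, 0.5 added to both) of the members in each of the 10 runs of neighbouring finger genes, and a box for the 174 members in no run. Points are genes coloured by domain class, thick lines are medians, and the box spans the quartiles; the chromosome 17 run from Zfp677 to Zfp946 has 11 of 14 genes above 0 and the chromosome 6 run from Zfp398 to Zfp746 has 0 of 6.

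Other runs leaned down. In the run from Zfp398 to Zfp746 on chromosome 6 all 6 members were under 0, with a median of -0.22 and a summed fold of 0.864 (0.830 to 0.898). In the run from Zfp595 to Zfp65, 1 of 9 members was above 0, with a median of -0.13. The 174 members in no run had a median of -0.09, with 50 above 0.

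Beyond those stretches the highest members were Zfp185 and Zfp518a. Zfp185, a LIM-domain protein of the actin cytoskeleton in which no C2H2 finger was found, had 598 reads in K5.Pp6fl/fl and 513 in Pp6fl/fl, which is 34.4 and 26.5 CPM, with a fold of 1.30 (1.15 to 1.46). Zfp518a had 465 reads in K5.Pp6fl/fl and 403 in Pp6fl/fl, a fold of 1.28 (1.12 to 1.47). Zfp275 had 178 and 158 reads, a fold of 1.254 (1.01 to 1.56). Zfp185 and Zfp275 lie on chromosome X, whose 5 members had a median log2 ratio of 0.26, with 4 above 0 and 1 below. Reads of these 5 members together gave a fold of 1.14 (1.06 to 1.23). They are low genes, with a median of 10.2 CPM in K5.Pp6fl/fl and 8.17 CPM in Pp6fl/fl. Chromosome X was picked after the values were seen, and no median of its other coding genes is given here.

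The lowest ratios were spread over chromosomes, but lower members were frequent on chromosome 7. Its 51 members had a median log2 ratio of -0.16, with 7 above 0. Intervals there lay below 1 for 21 (41.2%) and above 1 for 2 (3.92%), where 19.9% and 17.2% of all genes did so. Chromosome 7 was picked after the values were seen, and no median of its other coding genes is given here. Zfp503, a transcriptional corepressor of the NET family, had 720 reads in K5.Pp6fl/fl and 1150 in Pp6fl/fl, which is 41.4 and 59.4 CPM, with a fold of 0.697 (0.634 to 0.766). Its relative Zfp703, linked in human tissue to breast cancer, had 86.2 CPM in K5.Pp6fl/fl and 86.3 CPM in Pp6fl/fl, a fold of 0.999 (0.931 to 1.07), so the intervals of these relatives do not overlap. Zfp623 had 329 reads in K5.Pp6fl/fl and 515 in Pp6fl/fl, a fold of 0.711 (0.617 to 0.818). Zfp319, a gene of 12 fingers, had 499 and 770 reads, a fold of 0.721 (0.643 to 0.808).

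Lower on the list of reads, the SCAN gene Zfp202 had 106 reads in K5.Pp6fl/fl and 164 in Pp6fl/fl, a fold of 0.719 (0.558 to 0.924), and Zfp874a had 109 and 167 reads, a fold of 0.726 (0.565 to 0.930). Zfp715 had 273 and 412 reads, a fold of 0.738 (0.631 to 0.862), and its FPKM values, 4.74 in K5.Pp6fl/fl and 9.35 in Pp6fl/fl, were further apart. Zfp61 had 176 and 264 reads, a fold of 0.742 (0.610 to 0.901). Zfp281, which binds GC-rich promoters and regulates pluripotency in mouse embryonic stem cells, had 720 reads in K5.Pp6fl/fl and 1034 in Pp6fl/fl, a fold of 0.775 (0.704 to 0.853). The intervals of all of these lay below 1.

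**Figure D4:**
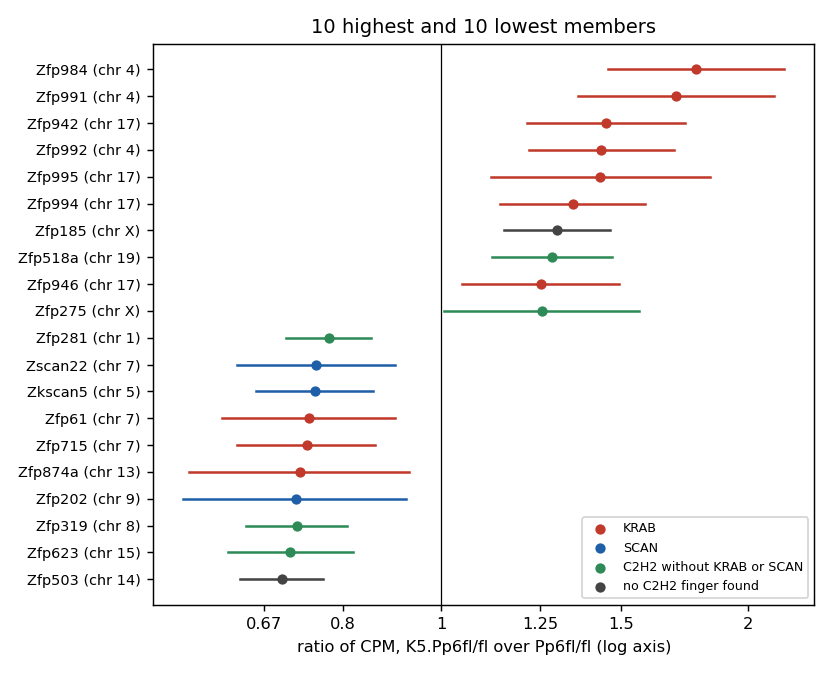
CPM in K5.Pp6fl/fl divided by CPM in Pp6fl/fl, on a log axis, for the 10 highest and the 10 lowest members whose counting interval leaves out 1, coloured by domain class; points are ratios and bars exact 95% intervals for counting error only. Zfp984 is highest at 1.78 and Zfp503 lowest at 0.697, and the genes on chromosomes 4 and 17 fill 7 of the 10 upper places.

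Most of the 10 members with the most reads were nearly level. Zfp91, a ubiquitin ligase of the noncanonical NF-kappaB pathway, had 3512 reads in K5.Pp6fl/fl and 3992 in Pp6fl/fl, a fold of 0.979 (0.936 to 1.02). Zfp106, an RNA-binding protein, had 3282 and 3791 reads, a fold of 0.964 (0.919 to 1.01). Zfp207, known as BuGZ and needed for spindle assembly, had 2805 and 2911 reads, a fold of 1.07 (1.02 to 1.13), and the highest length-scaled level of the family, 87.7 FPKM in K5.Pp6fl/fl and 82.8 FPKM in Pp6fl/fl. Zfp706 had 2179 and 2442 reads, a fold of 0.993 (0.937 to 1.05). Zfp598, whose human counterpart marks collided ribosomes, had 2054 and 2310 reads, a fold of 0.990 (0.932 to 1.05). Zfp638, an RNA-binding protein, had 1538 and 1757 reads, a fold of 0.974 (0.909 to 1.04).

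Other abundant members had intervals below 1 at small sizes. Above 29.7 CPM the interval lay below 1 for 33 of 79 members (41.8%) and above 1 for 5 (6.33%). For other coding genes in that range it lay below 1 for 23.9% and above 1 for 19.9%. Zfp622, whose human counterpart acts in maturation of the large ribosomal subunit, had 1970 reads in K5.Pp6fl/fl and 2448 in Pp6fl/fl, a fold of 0.896 (0.844 to 0.951). Zfp609, a partner of the cohesin loader Nipbl, had 1779 and 2228 reads, a fold of 0.889 (0.835 to 0.946). Zfp282 had 1599 and 2009 reads, a fold of 0.886 (0.829 to 0.947). Zfp664 had 1488 and 1808 reads, a fold of 0.916 (0.855 to 0.982).

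Members were also grouped by known role. Of 12 promoter and looping factors, all at the count level, the median log2 ratio was -0.11, with 1 interval above 1 and 6 below, where 17.2% and 19.9% of all genes did so. Zfp384, which binds A-rich DNA, had 1330 reads in K5.Pp6fl/fl and 1712 in Pp6fl/fl, a fold of 0.865 (0.804 to 0.929), and Zfp219 had 1154 and 1488 reads, a fold of 0.863 (0.799 to 0.933). Zfp148, which binds GC-rich promoters, had 87.5 CPM in K5.Pp6fl/fl and 86.4 CPM in Pp6fl/fl. Of 16 partners of histone and cofactor complexes 15 were at the count level, Zfp462 not, with a median of -0.01, 1 interval above 1 and 3 below, the last of which is near the share over all genes. Zfp217, a partner of the CoREST complex, had 1372 and 1440 reads, a fold of 1.06 (0.984 to 1.14), and Zfp335, a partner of histone H3 lysine 4 methyltransferases, had 1171 and 1407 reads, a fold of 0.926 (0.857 to 1.002). The 13 proteins of RNA, ribosomes and ubiquitin had a median of -0.03, with 2 intervals above 1 and 2 below, under the shares over all genes in both directions.

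Silencers of imprinted genes and retroelements were measurable in part. Of 12 such genes 5 were at the count level, with a median log2 ratio of -0.03 and no interval off 1 in either direction. Zfp57, Zfp30, Zfp429, Zfp459, Zfp708, Zfp819 and Zfp989 were not. Zfp568, which represses a placental Igf2 transcript, had 80.9 CPM in K5.Pp6fl/fl and 84.1 CPM in Pp6fl/fl. Zfp445, which acts with Zfp57 at imprinting control regions, had 59.1 and 60.3 CPM, and Zfp809, which silences retroviral DNA in mouse stem cells, had 25.4 and 26.8 CPM.

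The KRAB cofactor itself was lower in K5.Pp6fl/fl. Trim28 had 5456 reads in K5.Pp6fl/fl and 7141 in Pp6fl/fl, which is 314 and 369 CPM, with a fold of 0.850 (0.821 to 0.881), the lowest of the cofactor list. That list holds 42 genes of the TRIM28, HP1, NuRD, HUSH, SUMO and DNA methylation machinery, of which 41 were at the count level. Their median log2 ratio was 0.01, with 22 above 0. Intervals lay above 1 for 7 (17.1%) and below 1 for 9 (22%), near the 17.2% and 19.9% of all genes. Cbx3, an HP1 protein, was the highest, with 1426 reads in K5.Pp6fl/fl and 1310 in Pp6fl/fl, a fold of 1.21 (1.12 to 1.31). Setdb1 had 66.0 CPM in K5.Pp6fl/fl and 69.5 CPM in Pp6fl/fl, with an interval of 0.877 to 1.03. Atf7ip, its partner, had a fold of 0.893 (0.841 to 0.948), and Morc2a one of 0.886 (0.831 to 0.944). Of 13 NuRD subunits, 4 had an interval above 1 and 3 below. Mta3, at a fold of 1.11 (1.02 to 1.21), Hdac1, at 1.10 (1.03 to 1.18), Hdac2, at 1.08 (1.02 to 1.15), and Rbbp7, at 1.05 (1.01 to 1.10), were higher. Gatad2b, at a fold of 0.887 (0.831 to 0.946), Mta1, at 0.890 (0.827 to 0.958), and Mta2, at 0.936 (0.899 to 0.975), were lower. Setdb1, Atf7ip and the NuRD subunits other than Mta1 and Gatad2b were chosen after their values were seen.

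For some members the deposited FPKM values gave another difference than the counts. The ratios of FPKM and of CPM were 1.5 times apart or more for 9 members, against a background of 0.851% of genes, and for 31 of 237 members they differed in direction, against 11.6% of all genes. FPKM divides by an effective length that can differ between libraries where isoform shares do. Zfp950 had 194 reads in K5.Pp6fl/fl and 233 in Pp6fl/fl, but 5.43 and 34.96 FPKM, and for it the authors' deposited table lists -2.66 as the log2 fold change and 0.785 as the FDR. Zfp523 had 19.7 FPKM in K5.Pp6fl/fl and 9.58 FPKM in Pp6fl/fl, and Zfp280c had 6.31 and 13.9 FPKM. Over all members the median log2 ratio of FPKM was -0.09.

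**Figure D5:**
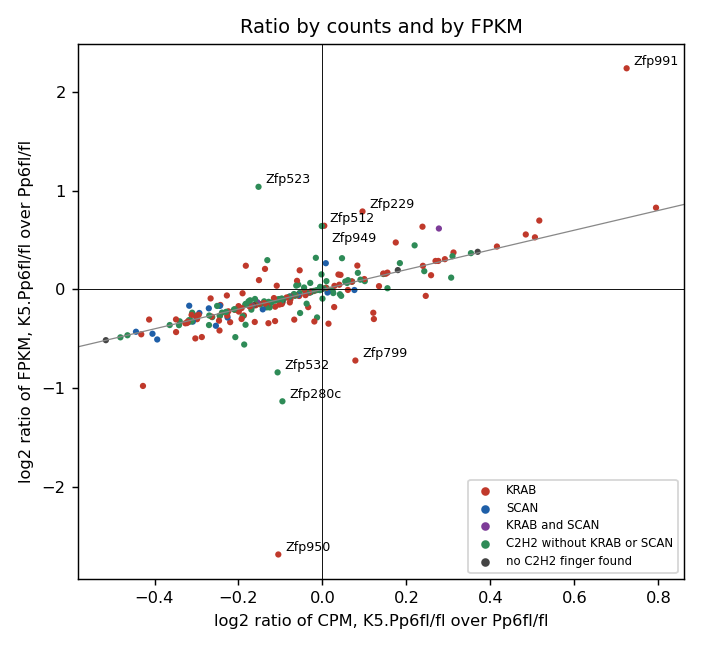
Log2 ratio of the deposited FPKM values (vertical axis) against the log2 ratio of read counts (horizontal axis), both K5.Pp6fl/fl over Pp6fl/fl, for the 237 members; the grey diagonal marks equal ratios, and the 9 members with ratios 1.5 times apart or more are named. Zfp991 lies far above the diagonal and Zfp950 far below it.

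Of the 179 protein-coding family genes left out, 164 were under 100 deposited counts in both libraries, 8 in K5.Pp6fl/fl only and 7 in Pp6fl/fl only, and 31 had 0 reads in both. The noncoding Zfp862-ps and Zfp125 reached the level and were left out as pseudogenes. Just inside the threshold stood Zfp11, with 96 reads in K5.Pp6fl/fl and 138 in Pp6fl/fl, Zkscan14, with 98 and 114, and Zfp968, with 116 and 108. Just outside it stood Zfp651, with 91 reads in K5.Pp6fl/fl and 107 in Pp6fl/fl, Zfp607a, with 90 and 114, and Zfp691, with 94 and 123. Reads may be under 100 inside the threshold because the deposited counts are reads multiplied by a constant per library. Of the members, 20 share at least 20% of their words with another gene and 13 have at least 20% of their exons under another gene, where libraries that do not mark strand cannot assign reads.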

How the data were processed

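RNA from 1 K5.Pp6fl/fl and 1 Pp6fl/fl culture was sequenced from oligo(dT)-selected, TruSeq libraries, per the labels' protocols. The submitters' processing notes name RSEM, edgeR and the mouse build mm8, with no roles. The aligner and annotation are not stated in the labels. The authors deposited estimated counts and FPKM per gene and library, and for each gene their own log2 fold change, p-value and FDR. Each count column was found to be reads multiplied by 1 constant, with a K5.Pp6fl/fl step 1.118 times the Pp6fl/fl step. Dividing by the steps made 97.4% of values under 100 reads whole, within 0.01 reads, in either column. The design had assumed unscaled counts. Reads were rounded.

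CPM used TMM-scaled library sizes (edgeR 4.0.16, R 4.3.3; factors 1.0013098 for K5.Pp6fl/fl and 0.99869187 for Pp6fl/fl). Log2 ratios are K5.Pp6fl/fl over Pp6fl/fl after adding 0.5 CPM. Intervals of folds are exact conditional binomial (Clopper-Pearson) at 95% and cover counting error only. A gene counts as 2-fold or 1.5-fold different if the log2 ratio reaches that size, the larger value is at least 1 CPM and the interval leaves out 1. The background is all 9870 genes with 100 deposited counts or more in both libraries.

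Symbols came from Ensembl IDs (47219 of 47719 matched) in GENCODE M21 of GRCm38, used also for gene order, overlap, GC content and domains. Because the named build differs, coordinates are printed only for RefSeq promoter windows, on their own build. KRAB and SCAN were called by at least 7 of 9 and 7 of 10 pattern positions in the longest coding sequence. No protein sequence is printed.

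The members and lists were chosen with earlier results of these data known. Named genes are the highest and lowest log2 ratios, the most abundant members, the most abundant of each role list, Zscan and Zkscan genes, members where FPKM and counts differ most, those at the threshold, and Ppp6c, Trim28 and the cofactors with the largest ratios. Zfp142 and Zfp369 were added later too. Genes of the runs were added after their values were seen. Alternatives were another scaling (DESeq2 1.42.0 size factors), pseudocounts of 0.1 and 2 CPM, thresholds of 50 and 200 counts, FPKM, a correction for GC content and length, and leaving out genes that share sequence or overlap. Scripts were tested on simulated data.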

Additional observations from a re-analysis of the deposited data

How the results depend on the processing

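The members' median log2 ratio stayed below 0 under every alternative run, from -0.11 with the correction for GC content and length to -0.07 with a threshold of 50 counts, and the share of members above 0 ran from 23.6% to 32.6%. The SCAN median ran from -0.24 to -0.16, and was -0.17 at 8 positions of the domain patterns, an alternative added after seeing the data. The KRAB median ran from -0.13, with the GC and length correction, to -0.06, with a threshold of 50 counts. The small counts past a fold moved. With FPKM, 1 member was at least 2-fold higher and 2 were 2-fold lower, and 5 were at least 1.5-fold higher and 4 lower. With a threshold of 50 counts 5 were 1.5-fold higher and 1 lower. With the GC and length correction 1 was 1.5-fold higher. None was with a threshold of 200 counts, without members that share sequence or overlap (0), or without the chromosome 17 and 4 runs (0), which also left 9 members with an interval above 1; that last alternative was chosen after seeing the data. Of 357 values of named genes under the alternatives, 9 left their main counting interval, all with FPKM. Direction turned for 11 of the 357 values, 6 of them with FPKM, and for 0 values of genes whose interval leaves out 1. No paired analysis was possible because each genotype has 1 library. For a member at 100 reads counting error alone limits what fold can be seen, and no alternative replaces a second culture.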
